A study of Mus musculus with 1012 samples.

Results

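The secreted enzymes that cut, spare and cross-link the extracellular matrix were followed in single mouse cells as 51 of the 30452 genes in the count table. The members are all protein-coding genes whose symbol is that of a numbered matrix metalloproteinase (Mmp, 19 genes), a tissue inhibitor of metalloproteinases (Timp, 4), a numbered ADAMTS protease (18), an ADAMTS-like protein (5) or a lysyl oxidase (Lox and Loxl, 5). The rule reads gene symbols and no measured value.

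The study profiled living cells with Live-seq, in which a hollow cantilever steered by fluidic force microscopy withdraws a small amount of cytoplasm for low-input Smart-seq2, and compared these biopsies with whole cells that were trypsinised, sorted and lysed for scRNA-seq. RAW_Mock cells were RAW264.7 macrophage-like cells that the labels call untreated and the study describes as given PBS, and RAW_LPS cells were the same line after lipopolysaccharide (LPS), for 4 to 5 h in Live-seq and for a time not given in the sources used here in scRNA-seq; nearly all were the RAW-G9 clone, which carries a Tnf promoter-mCherry reporter and a RelA-GFP fusion, whereas the 11 RAW_LPS biopsies and the 1 RAW_Mock biopsy of batch 5Reseq were wild type. IBA is an immortalised preadipocyte line from the brown fat of young male C57BL6/J mice. ASPC_Pre cells were primary adipose stem and progenitor cells from the subcutaneous fat of female C57BL/6J mice aged 7 to 10 weeks, and ASPC_Post cells were the same kind of cells after 2 days in dexamethasone, IBMX, insulin and rosiglitazone. All were grown in high-glucose DMEM with foetal bovine serum, so every value below is from culture. In a separate set, whole IBA cells were lysed 1 h and 4 h after a Live-seq biopsy, next to IBA cells that had not been sampled (0 h). Some Live-seq RAW_LPS and ASPC_Post biopsies were second biopsies of cells sampled once before.

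Matrix metalloproteinases and ADAMTS proteases are zinc enzymes made as inactive precursors, and most act outside the cell on collagens, proteoglycans and other matrix proteins. TIMPs bind the active site of these enzymes and block it, while ADAMTS-like proteins resemble the ADAMTS family without its catalytic domain. Lysyl oxidases work in the opposite sense by oxidising lysines in collagen and elastin so that the fibres become cross-linked. In fat depots the stromal progenitors are a main source of these proteins, and matrix remodelling accompanies their conversion into adipocytes.

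Values are CPM, counts per 1000000 kept counts, of the counts of all cells of 1 state in 1 batch, summed when the batch held at least 3 such cells. This gave 27 sums, 12 by scRNA-seq and 15 by Live-seq, and the batches, not the cells, are the replicates. The labels do not say whether a batch was also a separate culture or a separate animal. A gene was called changed when edgeR's quasi-likelihood test gave an adjusted p under 0.05 and a log2 fold change beyond 1, with the adjustment made over all genes tested. Of the 51 members, 33 passed the filter on low counts in each fit, so counts of calls speak for those 33 and not for the whole group. Among the values of at least 10 CPM in these sums, for the 27 members that reached that mean, 1 cell held over 50% of the counts in 5.04% of those of scRNA-seq, all in batch 8_8, and in 28.2% of those of Live-seq.

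Libraries held 41030 to 2671609 counts in scRNA-seq, 64547 to 1603790 in Live-seq and 38451 to 1077131 in the cells lysed after sampling. The markers fitted the labels. The summed level of 10 macrophage markers was 7646 to 9647.5 CPM in the RAW_Mock sums of scRNA-seq and 48.5 to 48.6 CPM in ASPC_Pre, while mesenchymal markers reached at most 4.16 CPM in RAW_Mock and at least 5068.2 CPM in IBA. The IBA sum of scRNA-seq batch 9_1 stood apart with 573 CPM of macrophage markers, against 4.06 and 9.38 CPM in the other IBA sums. Its part in the results below was not tested beyond leaving that batch out. Adipogenic markers set ASPC_Post apart from ASPC_Pre less clearly. Over the 5 tested, the median log2 difference was 0.40, with Pparg at 0.09, Plin4 at −0.04, Lpl at 0.40, Cebpa at 2.80 and Fabp4 at 4.44.

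Of the 51 members, 27 had a mean of at least 10 CPM in at least 1 scRNA-seq state. In scRNA-seq the members together took 0.00784% to 0.00929% of the counts in RAW_Mock sums, 0.226% to 0.675% in IBA, 0.776% to 1.24% in ASPC_Pre and 1.45% in the single ASPC_Post sum. In Live-seq the members took 0.0% to 0.0219% of the counts in RAW_Mock sums. They took 0.205% to 0.87% in IBA and 0.449% to 1.13% in ASPC_Pre, which overlap, and 1.4% in the ASPC_Post sum. In that sum lysyl oxidases were at 0.763% of all counts, TIMPs at 0.391%, MMPs at 0.184%, ADAMTS proteases at 0.0525% and ADAMTS-like genes at 0.00627%. Per kilobase of exon, Timp1 had the highest mean over batches in all 3 mesenchymal states of scRNA-seq, at 798.6 CPM per kb in IBA, 1680.8 in ASPC_Pre and 2547.8 in ASPC_Post, followed by Lox at 416.2, 973.4 and 1585.0, although Lox was ahead in the IBA batch named scRNA (816.4 against 718.4). The next was Loxl1 in IBA (88.8), Timp3 in ASPC_Pre, just ahead of Timp2, and Timp2 in ASPC_Post (317.7). RAW cells had another order at far lower levels per kilobase. Adamts10 (6.32) and Loxl3 (3.82) led in RAW_Mock, and Adamts4 (3.8) and Adamts1 (2.91) led in RAW_LPS.

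**Figure D1:**
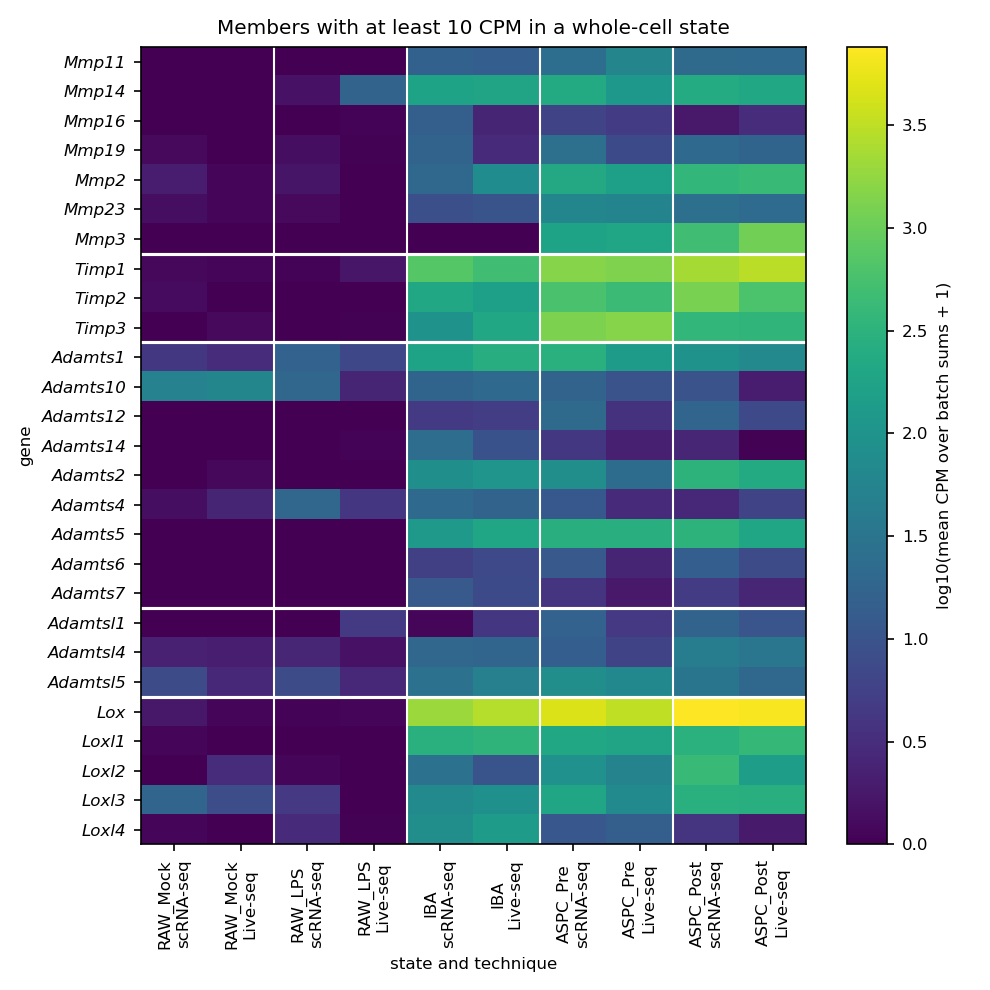
Heat map of the 27 members with at least 10 CPM in a scRNA-seq state (rows, by family) in the 5 cell states (columns) by scRNA-seq and by Live-seq; colour is log10 of the mean CPM over batch sums plus 1. Most rows are dark for RAW cells and bright for IBA and ASPC cells, while Adamts10 had its highest scRNA-seq mean, 52.2 CPM, in RAW_Mock.

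Among the matrix metalloproteinases, 7 of 19 reached the 10 CPM level. Mmp14, the membrane-anchored enzyme that activates the Mmp2 precursor, was read at 92.6, 213.6 and 222.5 CPM in the IBA sums of scRNA-seq, 268.0 and 194.5 CPM in ASPC_Pre and 240.0 CPM in ASPC_Post. Its RAW_Mock sums were at 0, 0 and 0.0291 CPM. Mesenchymal sums were all high and RAW_Mock sums all near or at 0, with no overlap.

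Mmp2, gelatinase A, separated the progenitors from the line. Its sums were 3.54, 8.87 and 44.8 CPM in IBA against 99 and 331.5 CPM in ASPC_Pre and 375.3 CPM in ASPC_Post by scRNA-seq. A read of Mmp2 was found in 19.6% of IBA cells and in 88.3% of ASPC_Pre cells. By Live-seq the IBA sums were 212.5, 0 and 15.2 CPM and the ASPC_Pre sums 38.9 and 271.5 CPM. The groups did not overlap in scRNA-seq and did overlap in Live-seq, where 1 IBA sum was high.

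Mmp3, stromelysin-1, was read in the primary progenitors and, outside them, in 1 library. It was at 0 in every RAW and IBA sum of both techniques. In scRNA-seq it was at 4.13 CPM in ASPC_Pre batch 8_8, 353.0 CPM in ASPC_Pre batch 9_1 and 483.7 CPM in ASPC_Post, and in Live-seq at 0 and 375.4 CPM in ASPC_Pre and 1139.2 CPM in ASPC_Post. The ASPC_Pre sums of batch 8_8 were thus low and those of batches 9_1 and 9_4 high. A read was present in 31 of 60 ASPC_Pre cells (51.7%) and 23 of 35 ASPC_Post cells (65.7%) in scRNA-seq, and in no IBA cell, which for counting error alone allows a share of cells with a read of up to 1.96%. Pooled over batches, the ASPC_Pre level in scRNA-seq was at least 6475.2-fold higher than in RAW_Mock and at least 6907.8-fold higher than in IBA, where 3 counts over the group stood in for 0. These bounds rest on batch 9_1, with 8588 counts of Mmp3. Batch 8_8 had 17 counts, 94.1% of them in 1 cell, and the bounds do not hold for it.

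The other MMPs were lower. Mmp23 was at 77.3 and 40.7 CPM in ASPC_Pre against 4.38, 7.6 and 11.5 CPM in IBA by scRNA-seq. Mmp11, stromelysin-3, was at 11.7, 19 and 13.7 CPM in IBA and 10.7 and 37.9 CPM in ASPC_Pre, and Mmp19 at 2.08, 26.4 and 19.5 CPM and 15.1 and 36.6 CPM, so that both overlapped between line and progenitors. Mmp16, another membrane-type enzyme, was at 4.38, 12.1 and 25.4 CPM in IBA, 5.84 and 4.56 CPM in ASPC_Pre and 0.813 CPM in ASPC_Post. Part of the exon sequence of Mmp19 (28.3%, with Tmem198b) and Mmp11 (5.58%, with Chchd10) lies under a gene of the other strand, and the counting did not use strand.

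Mmp3 lies on chromosome 9 (positions 7445822 to 7455975, forward strand, GRCm38) in a cluster of 6 members that spans 309.4 kb, from 7272514 to 7581885, with Mmp10 (stromelysin-2), Mmp12 (macrophage elastase), Mmp13 (collagenase-3), Mmp27 and Mmp1b. The 250 bases upstream of the annotated start of Mmp3, Mmp10 and Mmp13 are printed as those of neighbouring genes that hold both matches described next, and were picked with these matches known. The capitals mark a match to the AP-1 site TGANTCA and to the TATA box TATAAA, searched on both strands, and the sequences are those of RefSeq for GRCm38.p6, all on the forward strand. They span chr9:7445572-7445821 for Mmp3, chr9:7502092-7502341 for Mmp10 and chr9:7272264-7272513 for Mmp13.
Mmp3: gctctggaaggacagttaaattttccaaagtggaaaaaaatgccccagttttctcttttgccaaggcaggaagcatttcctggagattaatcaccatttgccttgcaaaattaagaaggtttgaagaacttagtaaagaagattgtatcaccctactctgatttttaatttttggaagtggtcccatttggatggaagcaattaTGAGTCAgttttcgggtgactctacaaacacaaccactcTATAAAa
Mmp10: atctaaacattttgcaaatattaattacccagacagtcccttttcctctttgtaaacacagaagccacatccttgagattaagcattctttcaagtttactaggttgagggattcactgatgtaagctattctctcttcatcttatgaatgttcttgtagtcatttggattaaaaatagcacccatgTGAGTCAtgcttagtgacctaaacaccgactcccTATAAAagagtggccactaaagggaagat
Mmp13: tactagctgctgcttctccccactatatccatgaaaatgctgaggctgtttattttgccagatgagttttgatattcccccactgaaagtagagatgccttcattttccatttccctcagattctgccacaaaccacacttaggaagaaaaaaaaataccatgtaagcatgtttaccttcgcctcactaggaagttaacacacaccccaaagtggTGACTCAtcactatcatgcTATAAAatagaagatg
The AP-1 letters begin 46 bases before the start site in Mmp3, 63 in Mmp10 and 35 in Mmp13, with the TATA letters downstream of them in each and no overlap between matches.

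A window was held for 33 of the 51 members. The AP-1 letters were found in 5 of them, Mmp3, Mmp10, Mmp12, Mmp13 and Mmp1b, all of the chromosome 9 cluster, and in 7.82% of the 27025 genes with a window, where a gene counts when any of its windows matches. TATAAA was found in 7 (Adamts1, Adamtsl2, Mmp10, Mmp13, Mmp1b, Mmp21 and Mmp3) and in 14.3% of all genes. The cyclic AMP response element TGACGTCA, the kappa-B letters GGGNNTTTCC, the glucocorticoid response element GNACANNNTGTNC and the CArG box were found in 0 of the 33 members, and in 1.77%, 1.65%, 0.44% and 1.62% of all genes. The window of Mmp27, of the same cluster, held no match. A match describes the letters of the window and not the use of a site.

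Reads of the cluster fell in few cells. Mmp3 had 41119 counts in 95 libraries, of which 2 counts, in 1 library, were outside ASPC cells. Mmp27 had no count outside ASPC cells, and 91% of the 555 counts of Mmp10 were in ASPC cells. Mmp13 had 56.1% of 230 counts there and Mmp1b 75.0% of 20, while all 32 counts of Mmp12 lay elsewhere, 31 of them in 1 RAW_LPS biopsy. Within the scRNA-seq progenitors, 54 of 95 cells had a read of Mmp3. Mmp27 was read in 13 of these 54 cells and in 0 of the other 41, Mmp10 in 13 against 2, and Mmp13 in 5 against 1. In Live-seq progenitors Mmp10 was read in 10 of 40 cells with a read of Mmp3 and in 1 of 58 without, whereas Mmp27 was read in 1 of 40 and 2 of 58. These cells share libraries and depth, and no test was made on them.

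Timp1, a secreted inhibitor, had the highest mean level per length over batches in the mesenchymal states of scRNA-seq. Its scRNA-seq sums were 682.9, 806.6 and 637.9 CPM in IBA (mean 709.2 ± 87.4 SD, n = 3), 1226.9 and 1758.1 CPM in ASPC_Pre and 2262.4 CPM in ASPC_Post. In RAW_Mock they were 0.462, 0.117 and 0.117 CPM. The order was RAW, IBA, ASPC_Pre and ASPC_Post, with no overlap between states. A read of Timp1 was present in all IBA cells but 1, in 60 of 60 ASPC_Pre cells and in 5.1% of RAW_Mock cells. In Live-seq the order of IBA and ASPC_Pre sums was mixed, with 196.5, 605.7 and 660.7 CPM in IBA and 437.2 and 2293.6 CPM in ASPC_Pre.

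Timp2, which also takes part in Mmp2 activation by Mmp14, was at 298.1, 118.2 and 216.5 CPM in IBA and 330.2 and 820.1 CPM in ASPC_Pre by scRNA-seq. Its ASPC_Post value was 1237.6 CPM, the highest of its scRNA-seq sums. In Live-seq it was at 195.3, 132.3 and 136.7 CPM in IBA, 325.5 and 551.3 CPM in ASPC_Pre and 607.0 CPM in ASPC_Post. The same order, without overlap, held for both techniques.

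Timp3, the inhibitor that stays bound to the matrix and also acts on ADAM and ADAMTS proteases, varied widely between batches of progenitors. It was at 50.7, 94.9 and 142.8 CPM in IBA, 175.8 CPM in ASPC_Pre batch 8_8, 2381.4 CPM in ASPC_Pre batch 9_1 and 367.8 CPM in ASPC_Post by scRNA-seq. By Live-seq it was at 188.7, 270.9 and 148.8 CPM in IBA, 588.6 and 2375.5 CPM in ASPC_Pre and 345.3 CPM in ASPC_Post. ASPC_Pre sums were above IBA sums in each technique, and the ASPC_Post value fell between the ASPC_Pre batches in scRNA-seq and below both in Live-seq. Of the Timp3 exon sequence, 21.3% lies under Syn3 on the other strand.

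Beside these progenitor values, smooth muscle and pericyte markers, 5 genes, summed to 63.7 CPM in scRNA-seq ASPC_Pre batch 8_8, where Myh11 and Rgs5 were at 0, to 332.2 CPM in batch 9_1 and to 40.7 CPM in ASPC_Post. In Live-seq the sums were 1788.0 and 451.8 CPM in ASPC_Pre and 38.3 CPM in ASPC_Post. Mesothelial markers, 3 genes, summed to 162.2 CPM in scRNA-seq batch 8_8, where Msln and Upk3b were at 0, to 36.5 CPM in batch 9_1 and to 0.29 CPM in ASPC_Post. Their part in the values of Timp3 and Mmp3 was not tested.

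The upstream windows of the inhibitors Timp1 and Timp3 are printed for contrast with the stromelysin windows. Timp1 lies on chromosome X from 20870166 to 20874735 and Timp3 on chromosome 10 from 86300372 to 86349506, both on the forward strand of the GENCODE annotation, and the Timp3 window ends inside that span because its RefSeq start lies downstream. The windows span chrX:20869916-20870165 and chr10:86300162-86300411, and no capitals are printed since none of the 6 motifs was found in either.
Timp1: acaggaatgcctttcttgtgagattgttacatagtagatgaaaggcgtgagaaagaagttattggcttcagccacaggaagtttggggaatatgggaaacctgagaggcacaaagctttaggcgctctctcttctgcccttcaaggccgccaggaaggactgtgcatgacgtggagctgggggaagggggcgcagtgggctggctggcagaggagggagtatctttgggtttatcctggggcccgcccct
Timp3: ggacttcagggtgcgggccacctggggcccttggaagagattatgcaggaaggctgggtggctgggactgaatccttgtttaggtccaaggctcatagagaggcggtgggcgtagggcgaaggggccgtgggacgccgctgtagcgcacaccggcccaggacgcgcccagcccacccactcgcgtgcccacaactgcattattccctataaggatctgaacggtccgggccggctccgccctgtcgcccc
These windows are 54.4% and 65.6% G and C, against 37.6% for Mmp3, 37.2% for Mmp10 and 40.4% for Mmp13.

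Of the ADAMTS proteases, 9 of 18 reached the 10 CPM level. Adamts1, which cleaves the proteoglycans aggrecan and versican, was at 63.4, 138.7 and 329.9 CPM in IBA, 289.8 and 292.3 CPM in ASPC_Pre and 94.4 CPM in ASPC_Post by scRNA-seq. Adamts5, another aggrecanase, was at 10.4, 109.2 and 235.3 CPM in IBA, 290.6 and 242.5 CPM in ASPC_Pre and 321.0 CPM in ASPC_Post. The lowest of these rested on 1 cell, without which it was 1.13 CPM. IBA values spread widely between batches for both genes, and for Adamts1 they overlapped those of the progenitors.

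The procollagen N-propeptidases had unlike patterns in the line and the progenitors. Adamts2 was at 39.6, 67.4 and 146.3 CPM in IBA, 86.3 and 75.2 CPM in ASPC_Pre and 317.0 CPM in ASPC_Post. Adamts14 was at 25.4, 25.9 and 17.7 CPM in IBA, 2.92 and 3.49 CPM in ASPC_Pre and 1.57 CPM in ASPC_Post. The IBA sums of Adamts14 all lay above the progenitor sums, whereas those of Adamts2 straddled the ASPC_Pre sums.

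Adamts10, a protease associated with fibrillin microfibrils, was the member with the highest level in unstimulated RAW cells. Its scRNA-seq sums were 67, 42.6 and 47 CPM in RAW_Mock, 18.6, 11 and 24.7 CPM in RAW_LPS, 16.5, 14 and 20.9 CPM in IBA, and 19.5 and 13.1 CPM in ASPC_Pre. RAW_Mock stood above the other states without overlap. Of the others, Adamts4 reached at most 28.7 CPM in IBA and 43.8 CPM in RAW_LPS. Adamts12, a protease of cartilage oligomeric matrix protein, reached 29.4 CPM in ASPC_Pre. Adamts6 reached 13.6 CPM in ASPC_Post, and Adamts7, with the same substrate as Adamts12, 15 CPM in IBA. Of the Adamts7 counts in that IBA sum 95.8% came from 1 cell, without which the IBA mean was 6.26 CPM, under the 10 CPM level.

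Among the ADAMTS-like genes, Adamtsl5 was at 29.2, 26.3 and 29.8 CPM in IBA, 57.6 and 106.7 CPM in ASPC_Pre and 31.6 CPM in ASPC_Post, and it was also read in RAW_Mock at 3, 4.15 and 12.7 CPM. Adamtsl4 was at 9.59, 19.5 and 24.3 CPM in IBA, 6.81 and 19.7 CPM in ASPC_Pre and 41.9 CPM in ASPC_Post. Adamtsl1 was at 0, 0.0636 and 0.465 CPM in IBA against 21.6 and 9.21 CPM in ASPC_Pre and 16.3 CPM in ASPC_Post. In these scRNA-seq sums Adamtsl1 was higher in ASPC than in IBA without overlap, Adamtsl4 overlapped between IBA and ASPC_Pre, and Adamtsl5 was lowest in RAW cells. In Live-seq Adamtsl1 overlapped between states, at 0 and 6.66 CPM in ASPC_Pre, 9.51 CPM in ASPC_Post, up to 9.48 CPM in IBA and up to 15.9 CPM in RAW_LPS, the last 2 each from 1 biopsy.

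All 5 lysyl oxidases reached the 10 CPM level. Lox, the founding enzyme of the family, was at 543.0, 1521.9 and 3900.6 CPM in IBA, 4251 and 5050.6 CPM in ASPC_Pre and 7573.1 CPM in ASPC_Post by scRNA-seq, against 1.62, 0.274 and 0.495 CPM in RAW_Mock. A read of Lox was found in all IBA cells but 1, in 60 of 60 ASPC_Pre cells and in 15.9% of RAW_Mock cells, or 2.56% after each cell was thinned to 50000 counts. The source of the Lox reads in RAW_Mock cells was not tested. By Live-seq Lox was at 5650.4, 381.3 and 2502.3 CPM in IBA, 2143.1 and 4210.5 CPM in ASPC_Pre and 6826.4 CPM in ASPC_Post, and a read was found in 42 of 44, 61 of 61 and 37 of 37 biopsies. The IBA sums of Lox spread from below to above those of ASPC_Pre in Live-seq only.

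Loxl1, which is needed for elastic fibres, was at 179.9, 243.4 and 455.4 CPM in IBA, 238.3 and 176.6 CPM in ASPC_Pre and 297.3 CPM in ASPC_Post, and by Live-seq at 326.8, 201.7 and 469.2, 148.4 and 224.1, and 380.2 CPM. IBA and ASPC_Pre sums overlapped in Live-seq, and in scRNA-seq the ASPC_Pre sums lay at the lower end of the IBA range. Loxl4 was higher in the line, at 97.3, 66.6 and 81.4 CPM in IBA against 9.48 and 11.3 CPM in ASPC_Pre and 2.9 CPM in ASPC_Post. Loxl2 ran the other way at its upper end, at 19.4, 46.4 and 14.5 CPM in IBA, 32.1 and 149.2 CPM in ASPC_Pre and 419.5 CPM in ASPC_Post. Loxl3 was at 35.9, 64.6 and 110.6 CPM in IBA, 157.1 and 231.3 CPM in ASPC_Pre and 291.5 CPM in ASPC_Post, and RAW_Mock cells also had it, at 17.8, 17.7 and 17.4 CPM. Some of its exon sequence (11.6%) lies under Htra2.

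**Figure D2:**
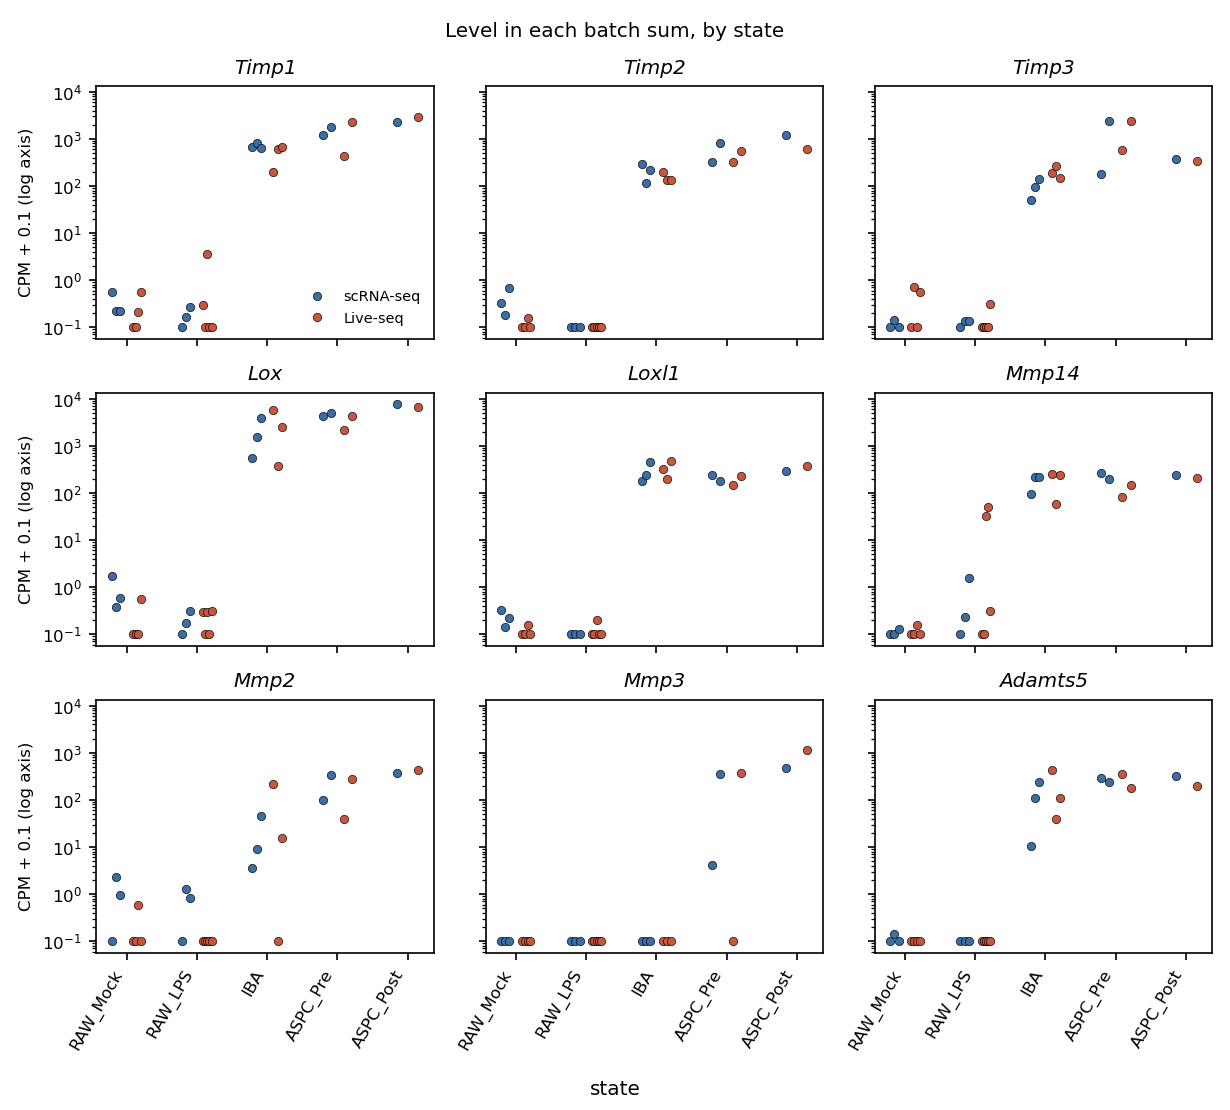
CPM plus 0.1 (log axis) of 9 members in each batch sum, by cell state; blue points are scRNA-seq and red points Live-seq. RAW_Mock sums lie near the bottom of each panel, Mmp3 is at 0 in IBA as well, and Timp3 shows the wide gap between ASPC_Pre batches, 175.8 and 2381.4 CPM by scRNA-seq.

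The first comparison asked how the mesenchymal cells differ from the macrophage line. In scRNA-seq, 29 of the 33 members tested were higher in IBA and ASPC_Pre together than in RAW_Mock, beside 25% of all genes, and 1 was lower, beside 12.9% of all genes. Of the 33, 13 had no count in RAW_Mock and passed the filter on low counts through other states, where they had to be higher, so that the count of 29 is a description. Those higher were all 5 lysyl oxidases, the inhibitors Timp1, Timp2 and Timp3, the MMPs Mmp2, Mmp11, Mmp14, Mmp16, Mmp17, Mmp19, Mmp23 and Mmp28, and the ADAMTS-like genes Adamtsl1, Adamtsl3, Adamtsl4 and Adamtsl5. Adamts1, Adamts2, Adamts4, Adamts5, Adamts6, Adamts7, Adamts9, Adamts12 and Adamts14 made up the ADAMTS proteases that were higher. The median log2 difference over the 33 members was 9.10 as fitted and 7.38 over the 30 members that remain when those at 0 in a group are set to 3 counts, where that over all genes was 0.21. Mmp3, Mmp10 and Mmp27 gave no call. They were at 0 in both RAW and IBA sums, so that the log2 differences fitted for them have no counts behind them in those states.

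Some members with few counts in RAW_Mock had large fitted differences as well. Timp1 was higher by a log2 of 12.98 ± 0.53 (SE), Lox by 13 ± 0.89 and Loxl1 by 11.90 ± 0.48. Timp1, Lox and Loxl1 had 9, 31 and 6 counts in the RAW_Mock cells of scRNA-seq. They too passed the filter on low counts only through the mesenchymal states, where they were high, so that their differences are descriptions. Loxl3, which RAW_Mock cells expressed, was higher by 2.98 ± 0.43 (edgeR, adjusted p = 0.000596) and Adamtsl5 by 3.45 ± 0.51 (edgeR, adjusted p = 0.000722). Adamts10 was the member that was lower, by a log2 fold change of −1.36 ± 0.30 (edgeR, adjusted p = 0.00543), from 52.2 ± 13 CPM (SD, n = 3) in RAW_Mock to 17.1 ± 3.53 CPM (n = 3) in IBA and 16.3 ± 4.51 CPM (n = 2) in ASPC_Pre. Pooled over batches, IBA had 4.81-fold and ASPC_Pre 12.6-fold more Loxl3 than RAW_Mock, and Adamts2, at 0 in RAW_Mock, was at least 2195.6-fold and 1643.4-fold higher.

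In Live-seq, 7 of 33 members were called higher in the same comparison, beside 1.63% of all genes, and 0 lower, beside 1.26%. They were Lox, Loxl1, Timp1, Timp2, Timp3, Mmp14 and Adamts5, all of them also called by scRNA-seq. Each of the 7 had at most 7 counts in the summed RAW_Mock biopsies. They passed the filter on low counts only through the mesenchymal states of scRNA-seq, so that this count too is a description. At an unadjusted p under 0.05 the edgeR fit held 15 members, beside 15.8% of all genes, and DESeq2 called 13, beside 13.4%. Lox differed by a log2 of 15.12 ± 1.25, where 2 counts were read in the summed RAW_Mock biopsies, and Timp3 by 11.21 ± 1.52, where 7 were. Adamts5 had 0 counts there and was at least 2583.8-fold higher in IBA and 2343-fold higher in ASPC_Pre. The calls rested on few batches, since 0 were left without batch 8_8, 1 (Lox) without batch 9_4 and 5 without batch 7.

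The second comparison set the brown preadipocyte line against the primary progenitors, which differ in depot, sex and immortalisation as well, so that these cannot be told apart. In scRNA-seq 7 of 33 members were lower in IBA than in ASPC_Pre, beside 7.47% of all genes, and 0 were higher, beside 3.69%. The 7 were Mmp2, Mmp3, Timp1, Timp3, Adamtsl1, Adamtsl5 and Loxl3. DESeq2 called 10 members in all, beside 15.1% of all genes. A total of 19 had an unadjusted p under 0.05 in edgeR, beside 30.2% of all genes, and 6 of 33 had a positive log2 difference, with a median of −1.89 over the members and −0.12 over all genes. Mmp3, Mmp10 and Mmp27, at 0 in IBA, lie below that median with 3 counts in place of 0.

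Timp3 was lower in IBA by a log2 fold change of −3.51 ± 0.63 (edgeR, adjusted p = 0.0127) and Mmp2 by −4.62 ± 0.80 (edgeR, adjusted p = 0.0108). Timp1 was lower by −1.35 ± 0.35 (edgeR, adjusted p = 0.0413), Loxl3 by −2.16 ± 0.48 (edgeR, adjusted p = 0.025) and Adamtsl5 by −2.10 ± 0.53 (edgeR, adjusted p = 0.0365). Adamtsl1 was lower by −7.75 ± 1.35, with a read in 0, 1 and 4 cells of the IBA sums and in 0 RAW cells. Mmp3, at 0 in IBA and RAW, and Adamtsl1 passed the filter on low counts only through the progenitors, where they were high, so that both calls are descriptions. As a pooled ratio, the line had 18-fold less Timp3, 11.7-fold less Mmp2 and 2.34-fold less Timp1 than ASPC_Pre. The Timp3 ratio was 25.1-fold within batch 9_1 and 3.47-fold within batch 8_8, and pooled without batch 9_1 the ratios were 1.34-fold for Timp3, 2.51-fold for Mmp2 and 1.91-fold for Timp1. In the 2 batches with both states, 8_8 and 9_1, each of the 7 was lower in IBA in each batch.

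Several members fell just short. Lox differed by −2.33 ± 0.65 (edgeR, adjusted p = 0.0501), Adamts5 by −3.14 ± 0.88 (edgeR, adjusted p = 0.0615), and the genes with higher values in IBA, Adamts14 and Loxl4, by 2.68 ± 0.83 (edgeR, adjusted p = 0.101) and 2.35 ± 0.96 (edgeR, adjusted p = 0.137). The calls depended on the batches included. Without batch 9_1 there were 0, without the batch named scRNA 3 (Mmp2, Mmp3 and Timp3), and without batch 8_8 7, of which 4 were shared with the full set. Without batch as a block there were 3, Mmp3, Timp3 and Adamtsl1.

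Live-seq gave 0 calls in either direction between IBA and ASPC_Pre, beside 0.00743% of all genes higher and 0.0149% lower. DESeq2 also called 0, and 2 members had an unadjusted p under 0.05 in edgeR, beside 3.94% of all genes, Mmp3 and Timp3, the latter with a log2 difference of −2.74 ± 1.20 (edgeR, unadjusted p = 0.0441). The difference between techniques in this contrast was past the threshold for 0 members, and 0 had an unadjusted p under 0.05 in edgeR, beside 2.24% of all genes.

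The third comparison asked what LPS changed in the macrophage line. LPS response genes, 10 in all, summed to between 423 and 2800.6 CPM in RAW_Mock and between 11755.5 and 25281.6 CPM in RAW_LPS by scRNA-seq. Among the members, 1 of 33 was called lower, beside 0.31% of all genes, and 0 higher, beside 0.922%. The gene was Loxl3, at 17.8, 17.7 and 17.4 CPM in RAW_Mock and 0.484, 3.68 and 5.83 CPM in RAW_LPS in batches 8_8, 9_1 and scRNA. Every RAW_LPS sum lay below every RAW_Mock sum, and the log2 difference was −2.40 ± 0.46 (edgeR, adjusted p = 0.0473). A read was found in 56.7% of RAW_Mock cells and 18.8% of RAW_LPS cells, or in 39.1% and 12.1% after thinning. The call was lost in each fit that left a batch out, with edgeR adjusted p values of 0.0972, 0.22 and 0.13 without batches 8_8, 9_1 and scRNA, and in the fit without batch as a block (edgeR, adjusted p = 0.202).

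Adamts10 had the next clearest values. Its scRNA-seq sums were lower after LPS in each of the 3 batches, from 67 to 18.6, from 42.6 to 11 and from 47 to 24.7 CPM, without overlap, and the log2 difference was −1.44 ± 0.34 (edgeR, adjusted p = 0.0906). Values of Adamts4 went the other way, from 0, 0 and 1.11 CPM to 0, 11 and 43.8 CPM, with a read in 2 RAW_Mock cells and 63 RAW_LPS cells (edgeR, adjusted p = 0.137). Adamts1 went from 0, 6.42 and 3.41 CPM to 15.7, 8.11 and 22.5 CPM (edgeR, adjusted p = 0.202). RAW_LPS sums of Adamts1 were all above those of RAW_Mock, whereas those of Adamts4 overlapped. DESeq2 called 7 members in this comparison, beside 5.26% of all genes, and 8 had an unadjusted p under 0.05 in edgeR, beside 14.6%. Mmp9, the gelatinase usually linked to macrophages, was at 0, 0 and 3.64 CPM in RAW_Mock and 0.242, 1.48 and 6.58 CPM in RAW_LPS, the last of which was 0.877 CPM without 1 cell, and did not pass the filter on low counts.

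In Live-seq, 0 of 33 members were called after LPS, beside 0.0% of all genes in each direction. DESeq2 called 6, beside 4.78% of all genes, and 3 had an unadjusted p under 0.05 in edgeR, beside 4.0%, namely Adamts10, Loxl3 and Mmp14. Loxl3 was at 0, 21.3, 7.85 and 0 CPM in the RAW_Mock sums and at 0 in all 5 RAW_LPS sums. A read was found in 4 RAW_Mock biopsies and in 0 of 50 RAW_LPS biopsies. With 3 counts in place of 0, the pooled level was 74-fold lower in RAW_LPS. Of the Loxl3 counts in RAW_Mock 54.6% came from 1 biopsy, without which that ratio was 34.5-fold. Since so few RAW_Mock biopsies held a read, neither ratio is a lower limit on a change after LPS. Adamts10 was at 0, 182.1, 34.2 and 18.1 CPM in RAW_Mock and 5.39, 0, 0.906, 1.4 and 0 CPM in RAW_LPS, which overlap through the RAW_Mock sum at 0. The sum at 182.1 CPM held 84.9% of its Adamts10 counts in 1 biopsy and was at 31.2 CPM without it. All genes together were shifted by a median log2 of −0.48 in this comparison. For Mmp14, 78.1% of the 392 counts in RAW_LPS came from 1 biopsy of 50.

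**Figure D3:**
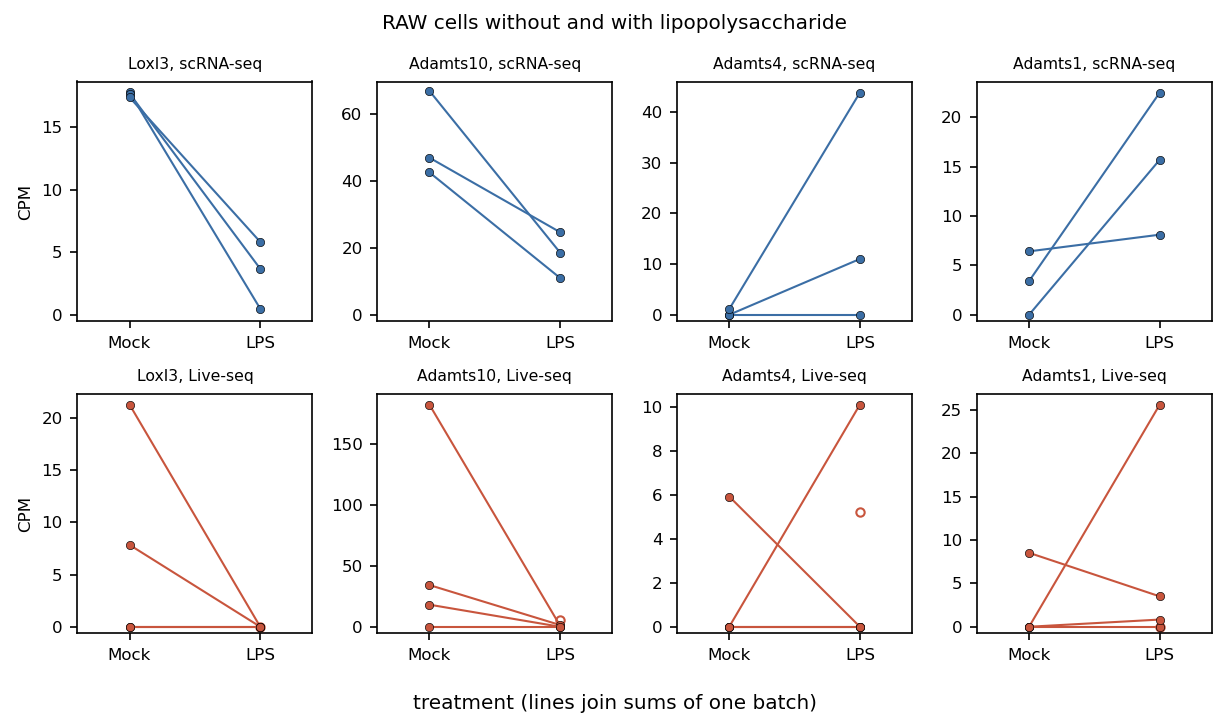
CPM of Loxl3, Adamts10, Adamts4 and Adamts1 in RAW_Mock and RAW_LPS sums by scRNA-seq and Live-seq (linear axes); lines join sums of 1 batch and the open circle is Live-seq batch 5Reseq, of wild-type cells, which has no RAW_Mock sum. All 3 scRNA-seq lines go down for Loxl3 and Adamts10.

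Adipogenic induction was compared where ASPC_Post and ASPC_Pre shared a batch, 9_1 in scRNA-seq and 9_4 in Live-seq. Each technique has a single ASPC_Post sum, and the edgeR fit over both techniques called 0 of 33 members, beside 0.0% of all genes in each direction, with 3 at an unadjusted p under 0.05, beside 4.11% of all genes (Mmp10, Mmp17 and Timp3), and 0 called by DESeq2. The values below are therefore descriptions of these sums, among members with at least 10 CPM in either.

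Timp3 had lower values after induction in both techniques, from 2381.4 to 367.8 CPM in scRNA-seq (6.48-fold lower) and from 2375.5 to 345.3 CPM in Live-seq (6.88-fold lower). In the fit over both techniques, which includes the low ASPC_Pre sums of batch 8_8, its log2 difference was −2.14 ± 0.93 (edgeR, adjusted p = 1). Adamtsl5 was 3.37-fold lower in scRNA-seq and 6.52-fold lower in Live-seq, Adamts1 3.1-fold and 1.88-fold lower, and Loxl4 3.89-fold lower in scRNA-seq. Under the 10 CPM level, Loxl4 in Live-seq went from 77 to 15 counts (4.84 to 0.938 CPM), with 86.7% of the 15 in 1 biopsy. Mmp10 was 18.8-fold lower in scRNA-seq, where its 6 ASPC_Post counts all came from 1 cell. The genes with lower values thus included an inhibitor, proteases and a cross-linking enzyme.

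Higher values after induction were found for the procollagen propeptidase Adamts2, 4.22-fold in scRNA-seq and 5.21-fold in Live-seq, for Loxl2, which cross-links collagen IV, 2.81-fold and 2.01-fold, and for Adamtsl4, 2.12-fold and 3.1-fold. Mmp3 was 1.37-fold and 3.03-fold higher, Lox 1.5-fold and 1.62-fold, and Timp1 1.29-fold in each technique. In scRNA-seq 3 of 23 members were at least 2-fold higher, beside 14% of all genes, and 4 of 23 at least 2-fold lower, beside 11.2%. In Live-seq 5 of 18 were higher, beside 13.5%, and 3 of 18 lower, beside 17.9%. Adamts2, Adamtsl4 and Loxl2 were 2-fold higher, and Adamtsl5 and Timp3 2-fold lower, in both techniques. Single cells weighed on the higher values. Without the ASPC_Post cell with the most counts of the gene, Adamts2 stayed 3.51-fold and 3.6-fold higher and Loxl2 was 2.63-fold and 1.68-fold higher, Adamtsl4 1.73-fold and 1.99-fold, and Loxl3 1.98-fold in Live-seq. Mmp3, with 35.9% and 42.8% of its counts in 1 cell, went to 0.911 and 1.8 times its ASPC_Pre level, so that its direction in scRNA-seq turned. Of the members at least 2-fold higher, 2 in scRNA-seq and 1 in Live-seq were still so when the top cell of either state was left out in turn, as were all 4 and all 3 of the lower ones.

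In 9 ASPC cells the labels join a biopsy before induction with a biopsy of the same cell after it. The pairing is that of the labels alone. The study reports fewer such pairs, matched by barcodes that mark the cells, and these barcodes were not analysed here. Timp3 was lower in the second biopsy in 9 of 9 cells, for example from 1101.4 to 282 CPM, from 2648.6 to 2.38 CPM and from 3945 to 0 CPM, with the smallest drop from 1324.8 to 1022.7 CPM. Adamts5 was lower in 7 cells and higher in 2, and Adamtsl5 lower in 6 and higher in 1. Lox was higher in 4 and lower in 5, as was Timp1. Adamts2, with a higher summed level after induction, was higher in 3 of these cells and lower in 5. The cells of these pairs are among those summed in batch 9_4, so they are not separate from the Live-seq values above. Median mitochondrial shares of counts in the shared batches were 3.64% before and 8.71% after induction in scRNA-seq and 3.03% and 8.2% in Live-seq, and smooth muscle and pericyte markers were also lower after it, as given above. Their part in the result was not tested.

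**Figure D4:**
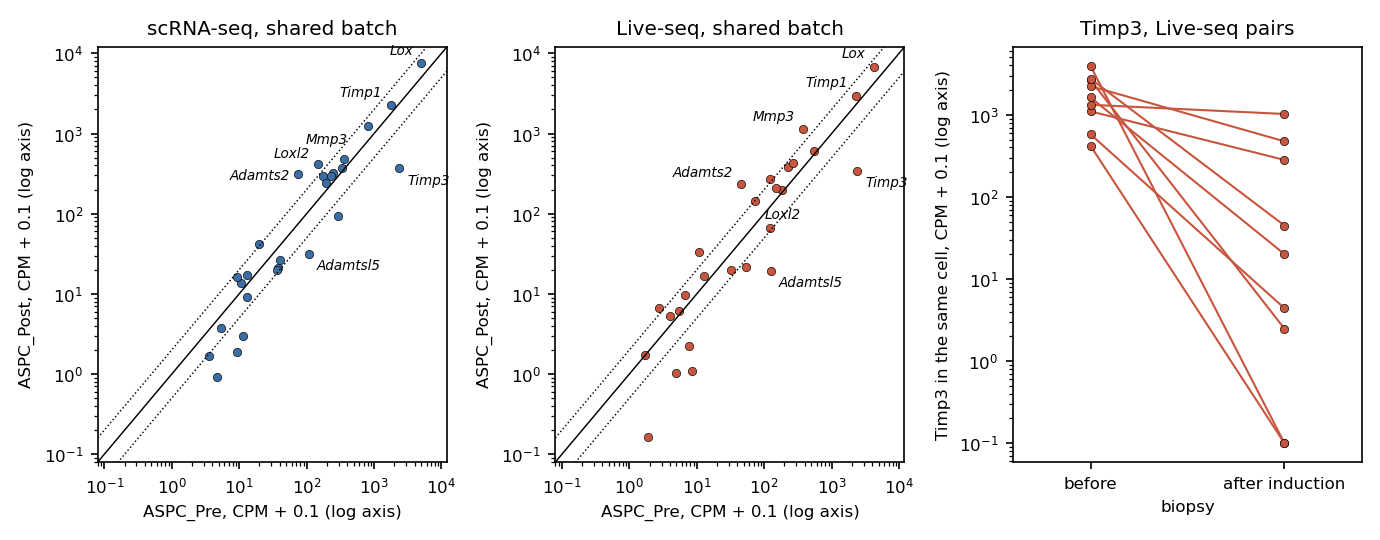
CPM plus 0.1 (log axes) of members in ASPC_Post against ASPC_Pre within the shared batch for scRNA-seq and Live-seq, with a solid line at equality and dotted lines at 2-fold, and Timp3 CPM in the 9 cells sampled before and after induction. Timp3 lies below the lower dotted line in both techniques and every line of the paired panel goes down.

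The cells lysed after sampling asked whether a biopsy altered the members in IBA cells. There was 1 batch with 70, 49 and 43 cells at 0, 1 and 4 h, so there is no replicate, no test was made, and the exact Poisson 95% intervals of the pooled CPM cover counting error only. Among members with at least 20 CPM at either time, 4 of 11 were at least 2-fold higher at 1 h than at 0 h, beside 1.69% of all genes, and 1 was at least 2-fold lower, beside 2.78%. They were Lox, Timp1, Timp3 and Loxl2, and the lower one was Loxl3. Loxl2 (6.64 to 27.7 CPM) passed the 20 CPM level only at 1 h, where it was high. Loxl3 passed it only at 0 h, so that both are descriptions. With a minimum of 50 CPM, 3 of 6 members (Lox, Timp1 and Timp3) were at least 2-fold higher at 1 h, beside 46 of 4510 genes. The median ratio at 1 h was 1.24 over the members and 0.952 over all genes.

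Timp3 went from 87.1 CPM (83.5 to 90.9) at 0 h to 345.8 CPM (338.1 to 353.8) at 1 h and 111.5 CPM (106.3 to 116.8) at 4 h. Lox went from 890.0 CPM (878.2 to 901.9) to 2092.6 CPM (2073.4 to 2111.9) and back to 955.9 CPM (940.7 to 971.2). Timp1 went from 1205.2 CPM to 2458.7 CPM and then 1702.9 CPM. All 3 were highest at 1 h, and so were their medians over cells, which were 637.7, 1708.1 and 729.8 CPM for Lox, 910.9, 1893.0 and 1233.0 CPM for Timp1 and 38.5, 203.9 and 52.2 CPM for Timp3.

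Loxl2 was 4.18-fold higher at 1 h, with 20.1% of its counts at 1 h in 1 cell. Loxl3 went from 25.6 CPM (23.6 to 27.7) to 9.41 CPM (8.16 to 10.8) and 11.9 CPM (10.2 to 13.7), and stayed at 0.464 of its 0 h level at 4 h. It was the 1 member at least 2-fold lower at 4 h, beside 3.59% of all genes, and 0 of 9 were 2-fold higher, beside 1.93%. Timp2 hardly moved, at 120.5, 122.6 and 129.9 CPM. Median mitochondrial shares were 4.52%, 8.74% and 9.01% and summed LPS response genes 2080.4, 3401.7 and 2032.3 CPM at the 3 times, and their part in these values was not tested.

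**Figure D5:**
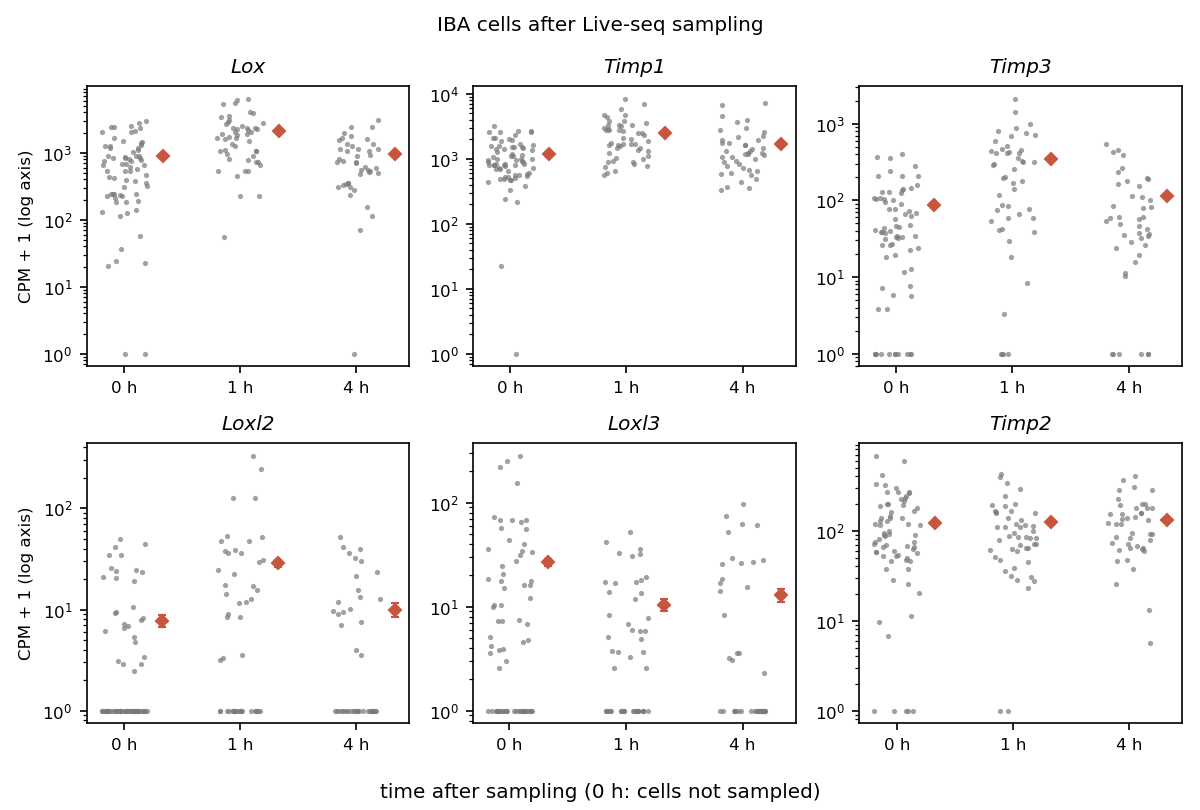
CPM plus 1 (log axis) of Lox, Timp1, Timp3, Loxl2, Loxl3 and Timp2 in single IBA cells (grey points) not sampled (0 h) and 1 h and 4 h after a biopsy; red diamonds are the pooled value with its exact Poisson 95% interval. Lox, Timp1 and Timp3 peak at 1 h, Loxl3 drops and Timp2 stays level.

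Whether the biopsy reports the members as the whole cell does was asked across all states. The comparison of Live-seq with scRNA-seq called 0 of 33 members, beside 0.0% of all genes in each direction, with 0 called by DESeq2 and 3 at an unadjusted p under 0.05 in edgeR, beside 4.0% of all genes (Adamts9, Mmp17 and Mmp28, all with lower values in Live-seq). The log2 difference was 0.03 ± 0.63 for Lox, 0.09 ± 0.52 for Loxl1, −0.21 ± 0.73 for Timp1, −0.32 ± 0.54 for Timp2 and 0.75 ± 0.68 for Timp3, where all genes had a median of −0.27. Differences of the order of these standard errors could not be resolved. The response to LPS differed between techniques for 0 members after adjustment and for 5 at an unadjusted p under 0.05 in edgeR, beside 4.92% of all genes.

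Genes of related systems were tested in the same fits. Among the plasminogen activation genes, Plat, Serpine2 and Serpinb2 were higher in IBA and ASPC_Pre than in RAW_Mock by scRNA-seq and Plau, the urokinase-type activator, was lower by a log2 fold change of −5.15 ± 0.47. After LPS, Plat rose by 5.59 ± 0.89 (edgeR, adjusted p = 0.0269). All 13 matrix substrate genes tested were higher in the mesenchymal cells in both techniques, beside the 25% of all genes in scRNA-seq and 1.63% in Live-seq given above, as were 10 of 13 collagen maturation genes by scRNA-seq and 6 of 13 by Live-seq. Of the 11 membrane proteases and inhibitors tested, 6 were higher (Adam9, Adam12, Adam19, Reck, Sparcl1 and Tfpi2) and 3 lower (Adam8, Adam17 and Cst3) by scRNA-seq, beside 25% and 12.9% of all genes, and 1 was called by Live-seq, Cst3, which was lower.

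Between IBA and ASPC_Pre, Plau and Serpine2 were lower in the line by scRNA-seq, by log2 fold changes of −2.80 ± 0.57 and −3.39 ± 0.49. Of the matrix substrates tested 3 of 13 were lower too (Fbn1, Nid1 and Col4a2), and of the maturation genes 2 of 13 (Fbln5 and Serpinh1). Among the membrane genes 3 of 11 were lower (Adam19, Reck and Tfpi2), where 7.47% of all genes were lower. Col6a1, 1 of the 13 matrix substrates, was higher, beside 3.69% of all genes.

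The remaining 24 members did not reach 10 CPM in any scRNA-seq state. Adamts18 had no read in any library. Reads were found in under 50 libraries for Adamts3, Adamts8, Adamts9, Adamts13, Adamts15, Adamts16, Adamts17 and Adamts20, for Adamtsl2, for Mmp1b, Mmp9, Mmp10, Mmp12, Mmp13, Mmp15, Mmp21, Mmp24, Mmp25 and Mmp27, and for Timp4. Mmp17, Mmp28 and Adamtsl3 were read in 58, 70 and 77 libraries. The highest scRNA-seq state means of this group were 9.35 CPM for Adamts9 and 8.83 CPM for Mmp17. Mmp9 had a mean of 2.77 CPM in RAW_LPS, or 0.866 CPM without 1 cell. In RAW_Mock 1 cell gave 125 counts of Mmp9. At this depth a level below a few CPM in a sum of few cells could not be told from 0.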

How the data were processed

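Gene counts per library were deposited by the authors as whole-number counts, not normalized, for 30452 features and 1012 libraries (296 Live-seq, 554 scRNA-seq and 162 IBA cells lysed after sampling). Per the submitters' processing notes and the study's methods, reads of 75 bases were demultiplexed with bcl2fastq 2.19.1, aligned to the mouse genome with STAR 2.6.1c and counted with HTSeq. The counting did not use strand, so genes that overlap on opposite strands cannot be told apart. For LPS the labels give 40 ng/ul, while the study's methods state another concentration.

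Cells of 1 technique, state and batch were summed when there were at least 3, which left out 1 RAW_Mock biopsy, and 27 sums resulted. Counts of 20 negative-control and 91 ribosomal protein genes were removed first, and CPM is per 1000000 kept counts of a sum. A gene entered the fits when 15% of the cells of some scRNA-seq state had 2 counts or more of it. The tool was edgeR 4.0.16 in R 4.3.3 (TMM, quasi-likelihood fit in its legacy form, batch as a block, filterByExpr set to min.count 2 and min.prop 0.05, prior count 0.125), with Benjamini-Hochberg adjustment over all genes and calls at an adjusted p under 0.05 and a log2 fold change beyond 1. The comparison of techniques had no block, since 1 batch held both, and ASPC_Post was compared with ASPC_Pre in 1 fit of both techniques. Values are two-sided tests between batches, whose spread may be technical. The same code was tested on simulated data: in the scRNA-seq comparison of IBA and ASPC_Pre it recovered 34 of 67 genes changed 4-fold and 62 of 67 changed 16-fold, and in the Live-seq comparison of the same states 0 of 67 and 2 of 67. Only genes above a minimum expected count were changed, and all states were drawn from a common mean profile without batch effects. The rates therefore do not describe members with few or no counts in a state, or those that differ between batches.

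The labels give batches, and in scRNA-seq the deviations of sums from their group means correlated between states of 1 batch at 0.227 to 0.522 in every pair, so batch paired the samples. In Live-seq these correlations were mostly lower, 0.0261 to 0.233 between RAW_Mock and RAW_LPS, −0.00642 to 0.0387 between IBA and RAW_Mock and 0.166 between IBA and ASPC_Pre. The highest, 0.233 in batch 6, lay within the range of scRNA-seq. Batch thus paired the Live-seq samples less clearly by this measure, and the block was kept there as designed.

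Alternatives were DESeq2 1.42.0, the edgeR 4 fit, RLE scaling, no filter, no block, the negative-control and ribosomal protein genes kept, cells thinned to 50000 counts, Live-seq cells with more than 1000 genes, each batch left out, other minimum levels for the cells after sampling and, chosen after seeing the data, sums of at least 10 cells and sums without the cell with the most counts of a gene. The members and gene lists were chosen with earlier results of these data known. Every member was accounted for. Those with a mean of at least 10 CPM in a scRNA-seq state were described with their values, and those called were named. Ratios within a shared batch and the 4 genes checked for outlying sums were chosen after their values were seen. Where a group had no counts, 3 counts over the group stood in for 0. Promoter windows of 250 bases are from RefSeq, GRCm38.p6. Python 3.11.15, pandas 2.3.3, numpy 2.4.6, scipy 1.17.1 and matplotlib 3.10.9 were used for the rest. Some genes of the related lists are not reported here.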

Additional observations from a re-analysis of the deposited data

Results flagged for a closer look

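In Live-seq, 4 values stood apart from the other sums of their state, and chance flags about 1 in 20 groups. Adamts1 was at 8.52 CPM in RAW_Mock batch 8_8, where the other 3 sums were at 0, and at 25.6 CPM in RAW_LPS batch 7, where the next sum was at 3.5 CPM. All RAW_Mock counts of Adamts1 came from 1 biopsy, and 68.4% of its RAW_LPS counts from 1 of 50. Adamts4 was at 5.92 CPM in RAW_Mock batch 8_8, with all counts in 1 biopsy and the other sums at 0. Adamts10 was at 5.39 CPM in RAW_LPS batch 5Reseq, the batch of wild-type cells, where the next sum was at 1.4 CPM and 71.8% of the 39 counts of the state came from 1 biopsy.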

How the results depend on the processing

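No log2 difference that was called changed direction under the alternatives run for it. After sampling, mean CPM over cells took the ratio to 0 h of Timp2 at 1 h from 1.02 to 0.874 and that of Loxl1 at 4 h from 0.879 to 1.05. In scRNA-seq the 30 members called between mesenchymal cells and RAW_Mock stayed at 29 to 30 with any batch left out. The 7 called between IBA and ASPC_Pre became 18 with the edgeR 4 fit, 3 with no replicate block, and 0 to 7 with a batch left out (0 without 9_1, 3 without the batch named scRNA). The 1 called after LPS became 7 with DESeq2, 3 with the edgeR 4 fit, 2 with no filter, 2 with thinned cells, 0 with no replicate block and 0 with any batch left out. In Live-seq the 7 called between mesenchymal cells and RAW_Mock became 13 with DESeq2, 11 with thinned cells and 0 to 7 with a batch left out, and the 0 called after LPS became 6 with DESeq2. Leaving out the replicate block moved no other count of members by over 1.5 times. After sampling, a minimum of 50 CPM left 0 members 2-fold lower at 1 h and 0 at 4 h, and mean CPM over cells gave 2 lower at 4 h. Over all genes, DESeq2 called 714 after LPS in scRNA-seq where edgeR called 0.922% of the 13563 tested higher and 0.31% lower (35 genes with no block, 410 with the edgeR 4 fit), and in Live-seq 1805 mesenchymal genes where edgeR called 388 (845 with no block, 1021 with the edgeR 4 fit). Between IBA and ASPC_Pre in scRNA-seq the edgeR 4 fit called 2627 genes and the fit with no block 950, where 1514 were called. The cause of these shifts was not tested. The few sums a state, 1 for ASPC_Post, limit what can be called: simulated 4-fold changes between ASPC_Post and ASPC_Pre were recovered for 1 gene of 67.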
